A study of Mus musculus with 30 samples.

Results

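The genes described here are 66 genes outside the Hox clusters whose level was higher in wildtype cells that had received Gdf11. They were chosen from the 54134 rows of a count table by their wildtype levels, in CPM (the count divided by the library total and multiplied by 1000000). A gene was kept where the wildtype mean with Gdf11 on day 4 (d4G) was at least 10 CPM, at least 4 times the mean without Gdf11 on day 4 (d4) and at least 2 times the mean of each of d2, d2.5 and d3. Of 78 rows that met these limits, 12 were dropped by symbol, 9 of them Hox genes. Wildtype levels are therefore given as a description and without a test. Tests compare Nr6a1-/- libraries with each other, in a fit of all 30 libraries. The limits did not use Nr6a1-/- levels, but the choice was made with earlier results of these data known.

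The cells were mouse embryonic stem cells (ESCs) of the Bruce4 line differentiated in N2B27 medium towards neuromesodermal progenitors (NMPs), the tail-end cells that give rise to spinal cord and mesoderm. All groups received FGF2, and d2 cells had FGF2 alone for 48 h. CHIR99021, a Wnt pathway agonist, was then added, and d2.5 and d3 cells were taken 12 h and 24 h later. The d4 cells were kept in FGF2 and CHIR for 24 h beyond d3, and the d4G cells received Gdf11 as well for those 24 h. Each stage was sampled in wildtype cells and in Nr6a1-/- cells, with 3 replicates in each of the 10 groups. The Nr6a1-/- cells were 1 clone with CRISPR/Cas9 deletions in exon 4 on both alleles, so that genotype and cell line are the same split.

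Gdf11 is a secreted ligand of the TGF-beta superfamily that signals through activin type receptors and the transcription factors Smad2 and Smad3. In the embryo it acts on the axial progenitors of the tail end, and it is known for its part in the change from making trunk to making tail and in the onset of posterior Hox genes. Signalling of this kind commonly switches on its own inhibitors, which makes such feedback genes a frequent readout. Nr6a1 is an orphan nuclear receptor of the same progenitors that binds DNA and is known mostly as a repressor.

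The 30 libraries held 1570714 to 3688197 counts (median 2366002), and 3 counts in a library, the limit that a count of 0 allows, corresponded to 0.813 to 1.91 CPM. Reads came from the 3′ ends of transcripts, so levels were not divided by gene length and are compared within a gene only. Nr6a1 itself lay between 167 and 187 CPM in wildtype and between 257 and 322 CPM in Nr6a1-/- d3 libraries, and at d4G between 17.8 and 19.9 CPM and between 18.5 and 38.7 CPM. Since the deletions are internal and the reads are from 3′ ends, these counts do not check the deletion. Of the markers that define NMPs, T (Brachyury) had means of 309 CPM in wildtype and 509 CPM in Nr6a1-/- d3 cells, and Sox2 of 78.5 and 76.0 CPM. In d4 wildtype replicate 2 the summed level of 11 epiblast and pluripotency markers was 748 CPM, against 99.7 to 118 CPM in the 11 other d4 and d4G libraries, and the choice of genes left this library out. The labels do not say whether replicates were separate cultures, so p-values measure the spread between these libraries, which may be technical. In 4 of 6 same-numbered pairs of d4 and d4G libraries the labels give both the same index. Nr6a1-/- d4 replicates 2 and 3 carry the index of the same-numbered Nr6a1-/- d3 libraries. The labels name no pool or run, so the part of pooling in the differences of d4 from d4G and from d3 was not tested.

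In wildtype d4G cells the 66 genes had means of 10.1 to 758 CPM (median 33.4), which was 4.03 to 148 times the d4 mean (median 6.77). Of these genes, 7 had a mean above 100 CPM and 18 a mean below 20 CPM. The SD of the 3 wildtype d4G libraries was 11.6% of the mean for the median gene and at most 55.8%, for Foxf1. Nearest inside the 4-fold limit were Wfikkn1 at 4.03, Adamtsl2 at 4.08 and Nhsl2 at 4.13 times d4, and nearest outside it were Kif26a at 3.91, Lypd6 at 3.90 and Sct at 3.82. In d4 wildtype replicate 2, the library left out, 20 of the genes were above replicates 1 and 3, 26 were below both and 20 were between them. For all 66 genes the 3 wildtype d4G libraries were above this library, and 62 had a d4G mean of at least 4 times its level. The lowest such ratio was 2.70, for Trabd2b.

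Together the 66 genes took 477 to 524 CPM in wildtype d4 libraries and 3604 to 3817 CPM in wildtype d4G libraries. The Nr6a1-/- libraries gave them 473 to 612 CPM at d4 and 4895 to 5047 CPM at d4G. At d2 both genotypes were between 274 and 289 CPM. The sum is dominated by a few genes such as Btg2, Spock2 and Nkd2, and the median gene lay at 31.7 to 33.4 CPM in wildtype and 22.0 to 25.5 CPM in Nr6a1-/- d4G libraries.

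**Figure D1:**
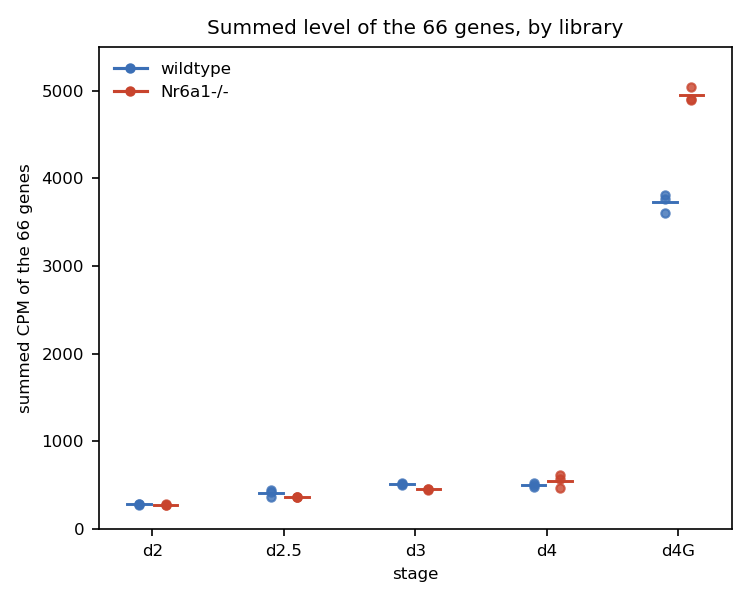
Summed level of the 66 genes in CPM (y axis) at each stage (x axis), 1 point per library with the group mean as a bar, wildtype in blue and Nr6a1-/- in red. All libraries without Gdf11 lie at or below 612 CPM, wildtype d4G libraries lie between 3604 and 3817 CPM and Nr6a1-/- d4G libraries between 4895 and 5047 CPM.

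The first question was whether genes picked for their Gdf11 response in wildtype cells also responded in cells without Nr6a1. In Nr6a1-/- cells, 57 of the 66 genes were higher at d4G than at d4 (edgeR quasi-likelihood test, FDR below 0.05) and 0 were lower, where 8.45% of the 12149 genes tested were higher and 9.59% lower. Their median log2 fold change was 2.66, and that of all genes tested was -0.02. All 3 d4G libraries were above all 3 d4 libraries for 59 genes, and the 2 ranges overlapped for the other 7. The share of all genes tested with such a separation was not counted, so nothing is read from the 59. All 66 genes passed the filter on low counts through wildtype d4G, 60 passed it in Nr6a1-/- d4 or d4G libraries alone, and 25 in Nr6a1-/- d4 libraries. At an unadjusted p below 0.05, 60 were higher and 0 lower, and DESeq2 called 56 higher and 0 lower. Scaled by library totals alone, 57 genes were again called higher, while the share of higher calls among all called genes moved from 46.8% to 59.6%.

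The 9 genes not called were Wfikkn1, Sox9, Tgfb2, Barx1, Fam210b, Igsf11, Spock1, Nhsl2 and Hey2. Their log2 fold changes lay between -0.15 (SE 0.41) and 1.14 (SE 0.49). Against d3, the stage at which Gdf11 was added, 60 of the genes were higher at d4G and 0 were lower, with a background of 18.8% higher and 19.0% lower, and the median was 2.43. The comparisons with d4 and with d3 share the d4G libraries. At an unadjusted p below 0.05 these counts were 61 and 0, and DESeq2 called 60 and 0. Wfikkn1, Sox9 and Hey2 were among those called against d3, where Wfikkn1 lost its call without d4G replicate 1. The comparison with d3 also holds 24 h more of culture. From d3 to d4G the log2 fold changes of Wfikkn1 and Sox9 were 2.04 (SE 0.55) and 1.24 (SE 0.30). Without Gdf11, from d3 to d4, these 2 genes had 2.19 (SE 0.53) and 1.29 (SE 0.29) and were also called higher. The calls of Jam2 and Rassf9 against d3 were less stable. Their log2 fold changes were 0.80 and 0.95, and the calls were lost under 5 and 6 of the alternative settings. Gm42939 was called against d4 at an FDR of 0.0499, and lost the call without any 1 of the 6 libraries compared (FDR 0.0596 to 0.168). Rora lost its call without d4G replicate 3 (FDR 0.0936) and Igfbpl1 without d4 replicate 1 (FDR 0.0868).

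**Figure D2:**
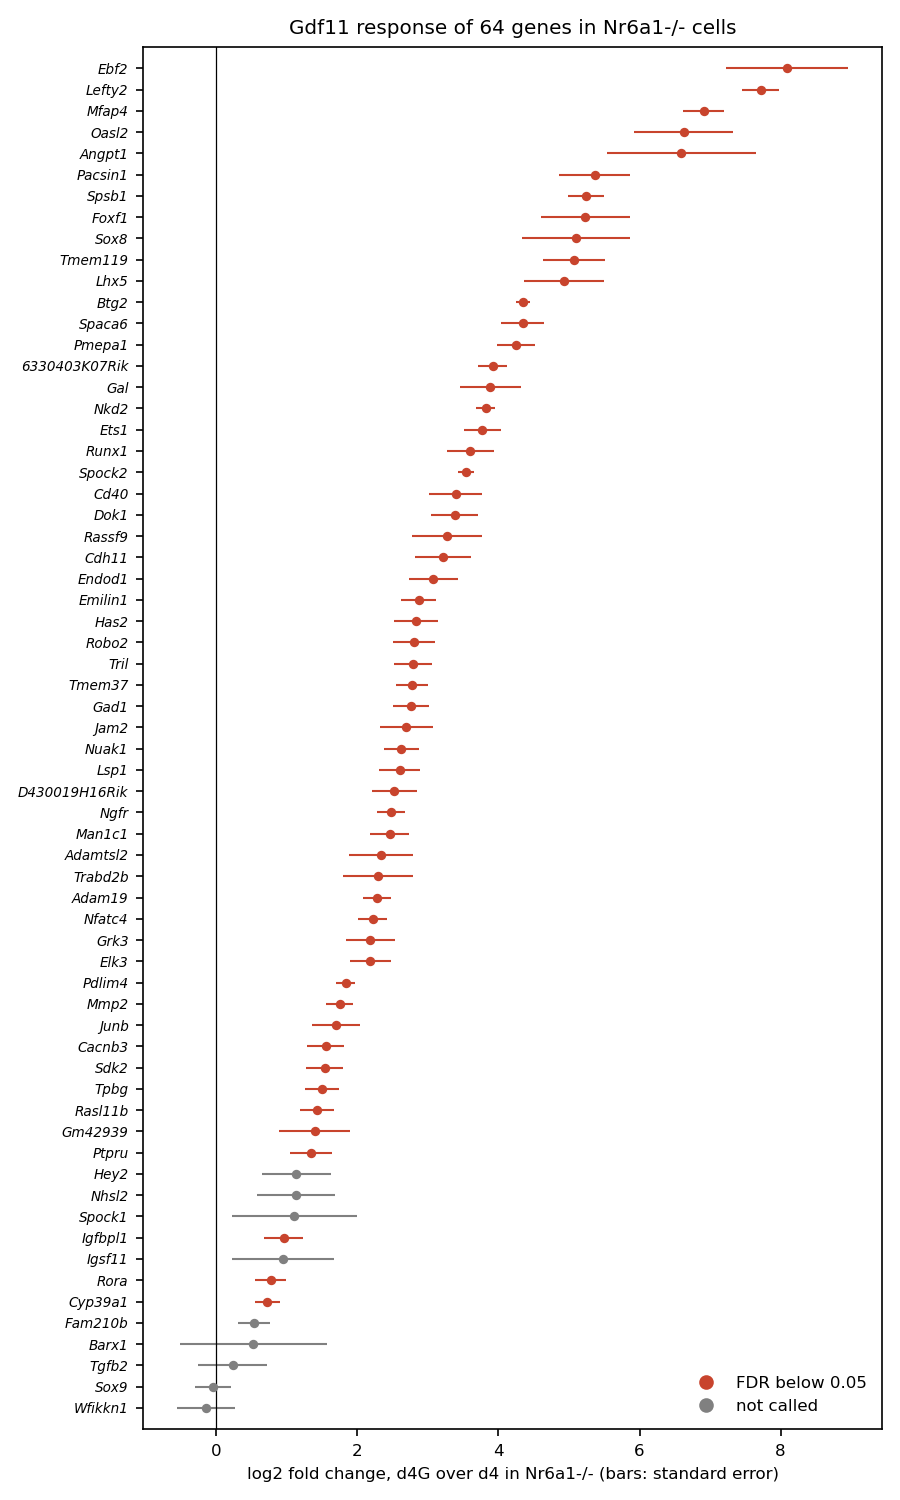
Log2 fold change of d4G over d4 in Nr6a1-/- cells (x axis) for 64 of the genes (y axis, sorted), with bars of 1 standard error, 55 genes with an FDR below 0.05 in red and 9 that were not called in grey. The values run from -0.15 for Wfikkn1 to 7.72 for Lefty2, apart from Ebf2, which lies above; Ebf2 and Angpt1 had 0 counts at d4, so that their fitted values depend on the prior count and give no size.

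The genes for ligands and inhibitors of the TGF-beta family came closest to the Gdf11 pathway itself, and 3 of 5 were called higher in Nr6a1-/- cells. The counts by function given from here on are parts of the 57 of 66 genes called. No difference between functions was tested. Pmepa1, a membrane protein that dampens TGF-beta signalling by binding Smads, was at 55.3, 56.2 and 55.5 CPM in wildtype d4G libraries. In Nr6a1-/- cells it was at 2.35, 2.85 and 5.07 CPM at d4 and at 81.7, 54.8 and 68.7 CPM at d4G. This was a log2 fold change of 4.25 (SE 0.27, FDR 5.54e-15), and in CPM the d4G ranges of the 2 genotypes overlapped. Lefty2, a secreted inhibitor of Nodal, was at 50.5, 57.9 and 69.8 CPM in wildtype d4G libraries and at 309, 331 and 337 CPM in Nr6a1-/- d4G libraries. At d4 the Nr6a1-/- libraries held 1.17, 2.38 and 0.845 CPM of Lefty2, and the log2 fold change was 7.72 (SE 0.26, FDR 3.92e-23). Its d4G mean was 5.49 times that of wildtype, and the ranges did not overlap. Spsb1, an adaptor of a ubiquitin ligase that limits TGF-beta receptor levels, was at 79.8, 78.3 and 84.9 CPM in Nr6a1-/- d4G libraries after 1.56 to 2.85 CPM at d4, a log2 fold change of 5.24 (SE 0.26, FDR 2e-18). Its wildtype d4G libraries, at 77.6 to 83.3 CPM, overlapped these levels.

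The other 2 genes of this kind, Wfikkn1 and Tgfb2, did not pass the test in Nr6a1-/- cells. Wfikkn1, a secreted protein that binds and inhibits Gdf11 and myostatin, was at 48.5, 51.1 and 59.0 CPM in wildtype d4G libraries. In Nr6a1-/- cells it was at 2.35, 9.52 and 6.76 CPM at d4 and at 9.50, 1.91 and 4.84 CPM at d4G, ranges that overlap (log2 fold change -0.15, SE 0.41, FDR 0.853). Its Nr6a1-/- d4G mean was 0.102 times the wildtype mean. Tgfb2, a ligand of the family, was at 16.3, 20.3 and 16.9 CPM in wildtype d4G libraries and at 6.18, 5.73 and 2.20 CPM in Nr6a1-/- d4G libraries. The Nr6a1-/- d4 libraries held 2.74, 3.33 and 5.07 CPM of Tgfb2, and the difference did not pass the test (log2 fold change 0.23, SE 0.49, FDR 0.802).

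The RefSeq promoter table (build GRCm38.p6, 250 bases before to 50 after the annotated start) held 46 promoters of 39 of the 66 genes. Motifs of factors of this pathway were searched on both strands. The Smad palindrome GTCTAGAC was in 0 of the 46, where 0.213% of all 32851 promoters hold it, and the Nr6a1 half-site TCAAGGTCA was in 0, where 0.423% hold it. The Smad CAGA box CCAGACA was in 1 (2.17% against 6.20%), the FoxH1 motif TGTGNATT in 1 (2.17% against 3.60%) and the Cdx and posterior Hox motif TTTATNG in 3 (6.52% against 10.9%). A match is a description of the letters in this window and shows no binding. The 250 bases before the start are given for 1 gene of each motif found, 5′ to 3′ along the gene, with the motif in capitals. They are Spsb1 (chr4:149955007-149955256, minus strand, Cdx and posterior Hox motif), D430019H16Rik (chr12:105453606-105453855, plus strand, Smad CAGA box) and Igsf11 (chr16:38902095-38902344, plus strand, FoxH1 motif).
Spsb1: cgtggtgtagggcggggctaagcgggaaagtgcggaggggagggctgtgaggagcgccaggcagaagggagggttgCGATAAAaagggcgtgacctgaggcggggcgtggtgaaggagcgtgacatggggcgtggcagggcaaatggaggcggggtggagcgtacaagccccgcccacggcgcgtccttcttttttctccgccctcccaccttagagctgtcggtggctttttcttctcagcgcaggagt
D430019H16Rik: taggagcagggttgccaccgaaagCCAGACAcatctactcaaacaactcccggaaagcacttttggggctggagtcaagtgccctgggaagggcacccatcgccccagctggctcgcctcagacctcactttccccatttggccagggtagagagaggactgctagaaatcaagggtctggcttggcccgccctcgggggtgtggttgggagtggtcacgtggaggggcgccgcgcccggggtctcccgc
Igsf11: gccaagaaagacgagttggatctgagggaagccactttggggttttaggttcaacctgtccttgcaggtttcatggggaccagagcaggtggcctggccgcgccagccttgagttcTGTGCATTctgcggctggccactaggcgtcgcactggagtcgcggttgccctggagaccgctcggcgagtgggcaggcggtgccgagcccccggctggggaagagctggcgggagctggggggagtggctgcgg
The motif of Spsb1 begins 174 bases before the start and lies on the opposite strand. The other 2 genes with this motif, Adamtsl2 and Oasl2, hold it in a form that contains the letters of a TATA box. Spsb1 had a log2 fold change in Nr6a1-/- cells of 5.24, D430019H16Rik had a log2 fold change of 2.53 (SE 0.32) and Igsf11 was not called.

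**Figure D3:**
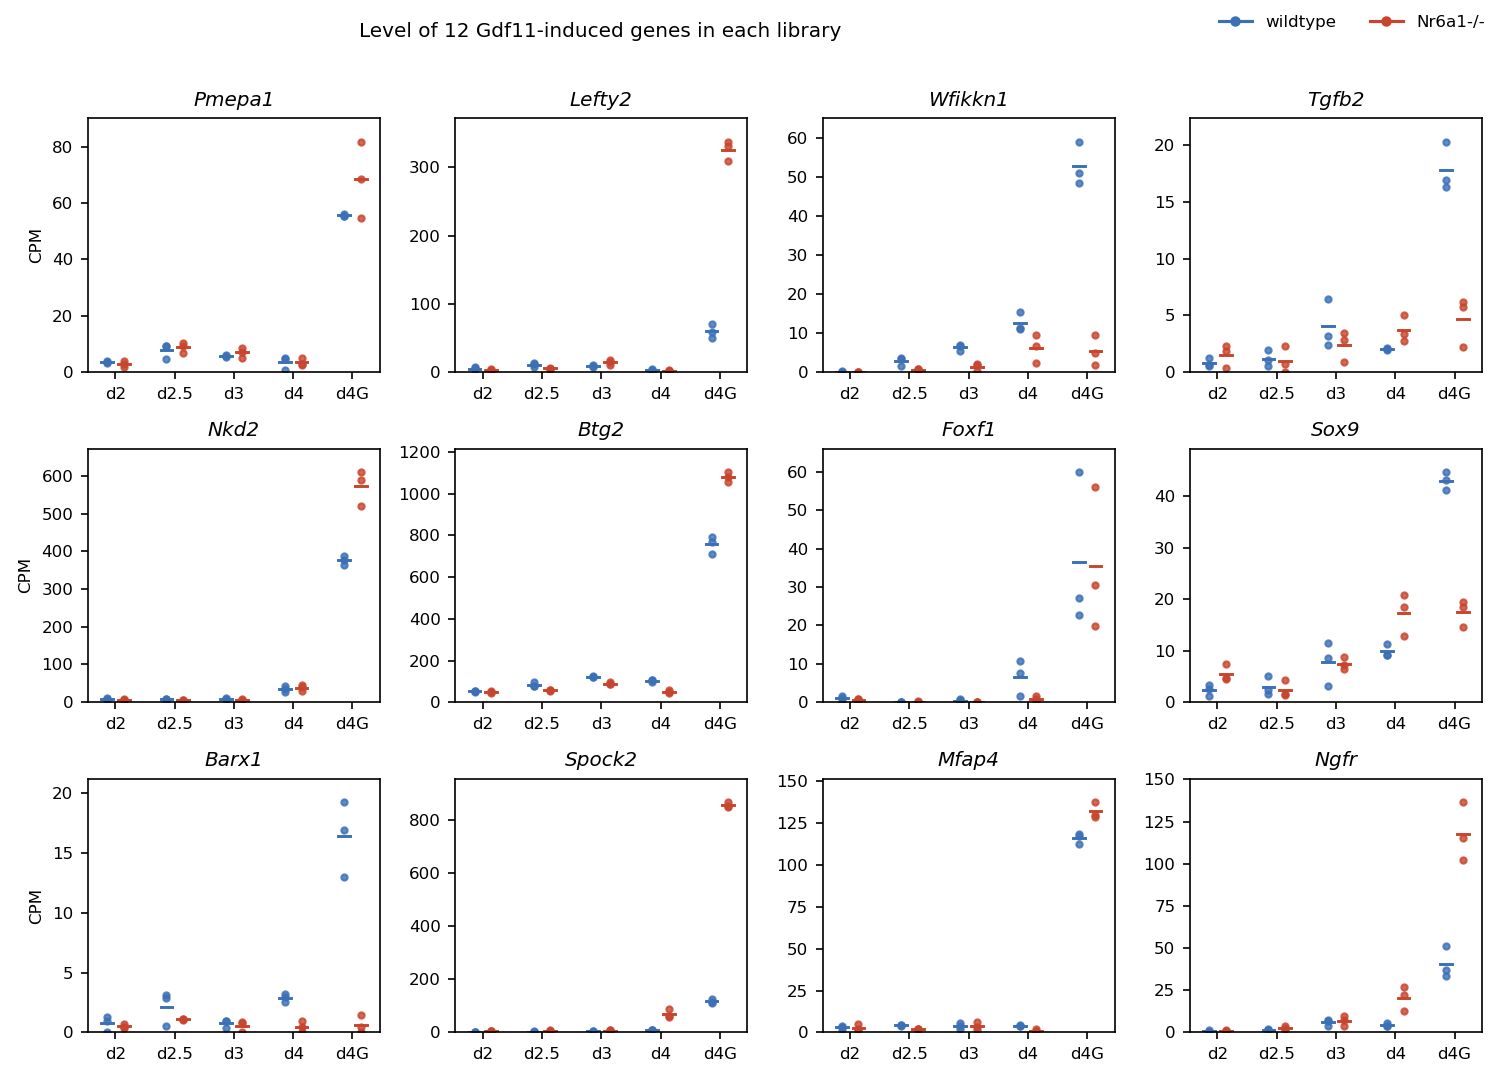
Level in CPM (y axes, separate scales from 0) of 12 of the genes at the 5 stages (x axes), 1 point per library with the group mean as a bar, wildtype in blue and Nr6a1-/- in red. Lefty2, Spock2 and Ngfr are highest in Nr6a1-/- d4G libraries, Wfikkn1, Tgfb2, Sox9 and Barx1 in wildtype d4G libraries, and Foxf1 spreads widely in both.

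All 3 Wnt antagonists were called higher in Nr6a1-/- d4G cells. Nkd2, which binds Dishevelled and inhibits Wnt signalling inside the cell, was at 377, 387 and 364 CPM in wildtype and at 521, 589 and 610 CPM in Nr6a1-/- d4G libraries. Its Nr6a1-/- d4 libraries were at 30.1 to 46.6 CPM, and the log2 fold change was 3.82 (SE 0.13, FDR 9.62e-23). Tpbg, a membrane glycoprotein that interferes with Wnt receptors, was at 54.1 to 80.3 CPM after 17.2 to 26.6 CPM, a log2 fold change of 1.50 (SE 0.24). Trabd2b, a membrane protease that cuts Wnt proteins, was the lowest of the group at 8.55 to 14.5 CPM after 1.17 to 2.85 CPM, a log2 fold change of 2.29 (SE 0.50). For Tpbg and Trabd2b the d4G ranges of the 2 genotypes overlapped.

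Of 14 genes for transcription factors, 11 were called higher at d4G in Nr6a1-/- cells, with a median log2 fold change of 2.91 over the 14. Runx1, a regulator of blood stem cell formation, reached 15.9 to 26.0 CPM from 1.27 to 2.38 CPM (log2 fold change 3.60, SE 0.33). The wildtype d4G range of Runx1, 18.7 to 24.3 CPM, lay within the Nr6a1-/- range. Foxf1, a regulator of lateral plate and visceral mesoderm, was at 22.6, 27.1 and 59.9 CPM in wildtype and at 56.1, 30.6 and 19.8 CPM in Nr6a1-/- d4G libraries, which overlap, after 0 to 1.56 CPM in Nr6a1-/- d4 libraries (log2 fold change 5.23, SE 0.63).

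Ebf2, a regulator of brown fat and neuronal differentiation, had 0 counts in the 3 Nr6a1-/- d4 libraries and 86 at d4G, which is at least 33.9-fold higher if a total of 3 counts is taken as the floor of the d4 group. Sox8, a relative of Sox9, had 2 counts at d4 and 72 at d4G, a ratio of 42.5 (exact 95% interval 11.4 to 358). Lhx5, a LIM homeobox gene of forebrain and spinal cord, had 3 and 92 counts, a ratio of 36.2 (12.0 to 179). These intervals cover counting error only. Ets1, an ETS factor, was the only one of the 14 with all Nr6a1-/- d4G libraries above wildtype, at 64.7 to 73.2 CPM against 39.9 to 46.9 CPM. The others called were Elk3, Nfatc4 and Rora, with log2 fold changes of 2.18, 2.22 and 0.77. Junb, a member of the AP-1 family, was at 53.4 to 67.3 CPM in wildtype and at 15.7, 17.2 and 15.8 CPM in Nr6a1-/- d4G libraries, and still rose from 2.96 to 5.71 CPM at d4 (log2 fold change 1.70, SE 0.34, FDR 0.000296).

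Sox9, Barx1 and Hey2 were the 3 transcription factors not called. Sox9, a regulator of cartilage and neural crest, was at 44.7, 43.1 and 41.2 CPM in wildtype d4G libraries. In Nr6a1-/- cells it was at 18.4, 12.8 and 20.7 CPM at d4 and at 19.5, 14.6 and 18.5 CPM at d4G, within the d4 range (log2 fold change -0.05, SE 0.26, FDR 0.931). The Nr6a1-/- d4 level of Sox9 was thus above the 9.22 to 11.3 CPM of wildtype d4 libraries. Barx1, a homeobox gene of stomach mesenchyme and facial primordia, was at 19.2, 16.9 and 13.0 CPM in wildtype d4G libraries. In Nr6a1-/- d4G libraries it was at 1.43, 0 and 0.44 CPM, 4 counts in all, after 3 counts at d4, a ratio of 1.57 (exact 95% interval 0.266 to 10.8), so that neither a rise nor a fall was detectable at this depth. Hey2, a Notch target, was at 3.80, 2.55 and 4.40 CPM at d4G and at 1.43 to 1.69 CPM at d4 in Nr6a1-/- cells, where the libraries did not overlap but the test was not passed (FDR 0.106).

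Of 12 genes for extracellular matrix, proteases and cell adhesion, 10 were called higher in Nr6a1-/- cells. Spock2, a secreted proteoglycan, was at 115, 126 and 111 CPM in wildtype d4G libraries and at 849, 866 and 853 CPM in Nr6a1-/- d4G libraries. Its mean was 7.29 times that of wildtype, the highest of these ratios over the 66 genes. Already without Gdf11 the Nr6a1-/- d4 libraries held 59.8, 88.0 and 63.4 CPM of Spock2, where wildtype d4 libraries held 8.12 to 8.39 CPM, and the log2 fold change with Gdf11 was 3.55 (SE 0.12, FDR 1.08e-23). Mfap4, a protein of elastic microfibrils, was at 113 to 119 CPM in wildtype and at 130, 138 and 129 CPM in Nr6a1-/- d4G libraries, after 0.782, 0 and 2.11 CPM (log2 fold change 6.91, SE 0.29). Mmp2, a gelatinase, was at 94.2, 91.7 and 75.9 CPM in wildtype and at 26.1, 26.7 and 30.4 CPM in Nr6a1-/- d4G libraries, and rose from 7.61 to 8.09 CPM at d4 (log2 fold change 1.75, SE 0.19, FDR 4.94e-09).

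Adam19, a membrane metalloprotease, was higher in Nr6a1-/- d4G libraries, at 82.8 to 91.5 CPM against 49.5 to 55.8 CPM. Has2, a hyaluronan synthase, was at 19.7 to 23.8 CPM and 21.6 to 24.7 CPM, ranges that overlap. Jam2, an adhesion molecule of cell junctions, was also higher in Nr6a1-/- d4G libraries, at 17.6 to 19.5 CPM against 12.5 to 16.9 CPM. Emilin1, Adamtsl2, Cdh11 and Sdk2 were also called, with log2 fold changes of 1.54 (Sdk2) to 3.21 (Cdh11). The 2 genes of the group that were not called were low in Nr6a1-/- cells at both stages. Spock1, a relative of Spock2, was at 7.21, 9.30 and 15.2 CPM in wildtype and at 1.90, 1.91 and 0.44 CPM in Nr6a1-/- d4G libraries, the opposite order of the genotypes to that of Spock2. Igsf11, an adhesion molecule of the immunoglobulin family, was at 9.13 to 23.0 CPM and at 1.76 to 4.46 CPM.

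All 7 genes for receptors and secreted ligands were called higher in Nr6a1-/- d4G cells. Gal, the neuropeptide galanin, had the largest wildtype ratio, from 0.290 to 0.542 CPM at d4 to 50.9, 53.3 and 53.8 CPM at d4G. In Nr6a1-/- cells it was at 11.2, 9.02 and 8.40 CPM at d3 and at 1.56, 1.90 and 0 CPM at d4. With Gdf11 it was at 19.96, 15.9 and 18.9 CPM, below wildtype in all 3 libraries (log2 fold change 3.89, SE 0.43, over d4 and 0.95, SE 0.28, over d3). Ngfr, the low-affinity neurotrophin receptor, went the other way, at 37.0, 51.1 and 33.4 CPM in wildtype and 102, 115 and 136 CPM in Nr6a1-/- d4G libraries. Its Nr6a1-/- d4 libraries were at 12.5 to 26.6 CPM and the log2 fold change was 2.48 (SE 0.20). Tril, an accessory protein of Toll-like receptors, was at 98.9 to 115 CPM in wildtype and at 26.6, 30.6 and 30.8 CPM in Nr6a1-/- d4G libraries (log2 fold change 2.79, SE 0.27). Robo2, a receptor of Slit guidance cues, was at 29.3 to 30.4 CPM in wildtype and at 24.2 to 32.3 CPM in Nr6a1-/- libraries, which overlap. Cd40 and Ptpru had log2 fold changes of 3.40 and 1.35. Angpt1, a ligand of the Tie2 receptor, had 0 counts at d4 and 30 at d4G in Nr6a1-/- cells, at least 11.8-fold higher by the same floor.

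All 6 genes of intracellular signalling and growth control were called higher as well. Btg2, an antiproliferative gene, was at 714, 792 and 767 CPM in wildtype and at 1106, 1082 and 1058 CPM in Nr6a1-/- d4G libraries. Since Nr6a1-/- d4 libraries were at 50.1, 42.8 and 58.3 CPM and wildtype d4 libraries at 96.8 to 107 CPM, Btg2 was lower than wildtype without Gdf11 and higher with it. Its log2 fold change in Nr6a1-/- cells was 4.35 (SE 0.10, FDR 4.9e-28). Rassf9, of the Ras association domain family, was below wildtype at d4G, at 8.55 to 10.2 CPM against 17.3 to 17.8 CPM. Nuak1, a kinase related to AMPK, overlapped at 31.2 to 42.2 CPM in Nr6a1-/- and 31.2 to 42.7 CPM in wildtype d4G libraries. Grk3, Dok1 and Rasl11b had log2 fold changes of 2.19, 3.38 and 1.43 in Nr6a1-/- cells.

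Of the 19 remaining genes 17 were called higher, all but Fam210b and Nhsl2. Spaca6, a sperm protein needed for fertilisation, was at 58.3 to 61.0 CPM in wildtype and at 63.7 to 89.3 CPM in Nr6a1-/- d4G libraries after 0.845 to 8.56 CPM (log2 fold change 4.35, SE 0.31). Its annotated span also holds the genes of the microRNAs miR-99b, let-7e and miR-125a, whose mature forms these libraries do not measure. Oasl2, an interferon-inducible gene, had 1 count at d4 and 118 at d4G in Nr6a1-/- cells, a ratio of 139 (exact 95% interval 24.5 to 5550). Pacsin1, which binds membranes and the cytoskeleton at endocytosis, had 3 and 123 counts, a ratio of 48.4 (16.2 to 238). Cyp39a1, an oxysterol hydroxylase, had a small response, from 16.8, 31.4 and 25.4 CPM to 36.1, 45.8 and 44.4 CPM (log2 fold change 0.73, SE 0.18, FDR 0.00342). Pdlim4, 6330403K07Rik and Tmem37 were the most abundant of the others, with wildtype d4G means of 127, 122 and 94.7 CPM and log2 fold changes in Nr6a1-/- cells of 1.83, 3.92 and 2.78. Tmem119, Endod1, Gad1, Lsp1, Man1c1, Cacnb3 and Igfbpl1 were called with log2 fold changes of 0.95 (Igfbpl1, SE 0.27) to 5.07 (Tmem119, SE 0.44). Fam210b, a mitochondrial protein, was at 15.7 to 26.4 CPM after 10.6 to 15.6 CPM in Nr6a1-/- cells, where the libraries did not overlap but the test was not passed (FDR 0.0961).

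At d4G the ratio of the Nr6a1-/- to the wildtype mean had a median of 0.91 over the 66 genes and ran from 0.038 for Barx1 to 7.29 for Spock2. It lay between 0.5 and 2 for 43 genes, above 2 for 4, among them Spock2, Lefty2 and Ngfr, and below 0.5 for 19. On TMM-scaled CPM, all 3 Nr6a1-/- libraries were below all 3 wildtype libraries for 28 genes, where this held for 12.3% of all genes tested, and above them for 17, where it held for 12.0%. The genes were chosen for high wildtype d4G levels, so nothing is read from these counts. In bulk RNA, fewer cells of a type and less RNA per cell cannot be told apart.

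**Figure D4:**
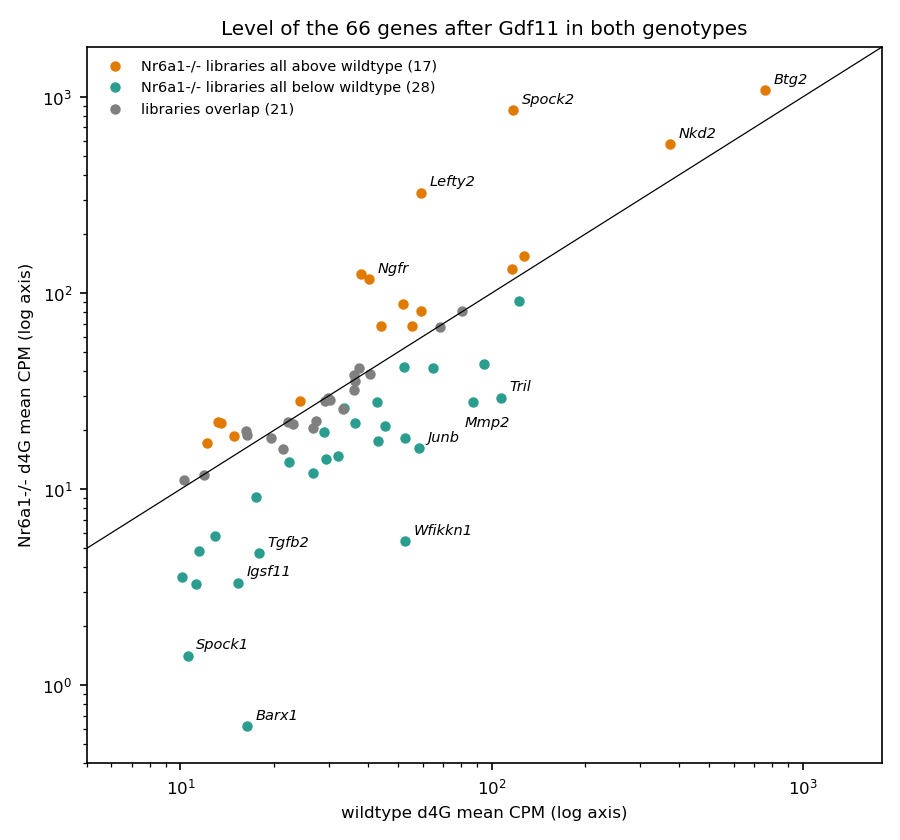
Mean level at d4G in wildtype (x axis) and Nr6a1-/- cells (y axis) of the 66 genes, in CPM on log axes, with the line of equal levels. Colours mark the 17 genes whose Nr6a1-/- libraries are all above wildtype on TMM-scaled CPM, the 28 that are all below and the 21 that overlap, and Barx1 and Spock2 lie farthest from the line at ratios of 0.038 and 7.29.

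Other measures differed between the genotypes beside these levels. The summed level of 9 endoderm markers was 51.5 to 69.2 CPM at d4 and 66.8 to 90.8 CPM at d4G in wildtype cells, and 5.92 to 10.5 CPM and 6.65 to 11.0 CPM in Nr6a1-/- cells. Cer1 had 0 counts in all 4 groups, and Afp in all but wildtype d4G. The 13 paraxial mesoderm markers summed to 244 to 262 CPM in wildtype and 378 to 408 CPM in Nr6a1-/- d4G cells. For 11 NMP markers the sums at d4G were 809 to 839 CPM in wildtype and 527 to 595 CPM in Nr6a1-/- cells. At d4 these NMP sums were 711 to 770 CPM and 784 to 1019 CPM. Not all NMP markers followed the sum at d4G. Means in wildtype and Nr6a1-/- cells were 146 and 203 CPM for Cdx1, 13.3 and 22.6 CPM for Wnt3a and 16.8 and 19.3 CPM for Nkx1-2. The other NMP markers had lower means in Nr6a1-/- cells, among them Cdx4 at 181 and 53.4 CPM. The part of such cells in the genotype differences was not tested. Mmp2, Cdh11, Junb and Foxf1 lie on chromosome 8, whose 655 genes tested had a median log2 ratio of Nr6a1-/- to wildtype at d4G of -0.30, against 0.02 for the other autosomes. Within Nr6a1-/- cells the chromosome 8 genes had a median change from d4 to d4G of -0.03.

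The genes were also followed in Nr6a1-/- cells without Gdf11. Between d3 and d4, 14 were called higher and 12 lower, against a background of 13.6% and 12.3%, and their median log2 fold change was -0.01. These d4 libraries are also those that d4G was compared with. With library totals alone the share of higher calls among all called genes moved from 52.5% to 40.3%, and none of the 26 lost its call. The 14 that rose without Gdf11 included Spock2 (log2 fold change 3.34, SE 0.18), Nkd2 (2.62), Adam19 (2.17), Ngfr (1.62) and Sox9 (1.29). The 12 that fell included Lefty2 (-3.22), Gal (-2.93), Rassf9 (-2.32), Jam2 (-1.89) and Btg2 (-0.75). At d4G the genes of both kinds named here were higher than at d4, except Sox9.

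During the first 24 h of CHIR, from d2 to d3, 26 of the 66 rose in Nr6a1-/- cells and 6 fell, with a background of 16.6% and 15.1% and a median of 0.76. Gad1, which makes the transmitter GABA, went from 0 to 0.461 CPM at d2 to 10.4, 11.2 and 11.1 CPM at d3. Wfikkn1 went from 0 counts to 0.382 to 2.00 CPM. Adam19, Pacsin1, Junb and Tmem37 were among the 6 that fell. Adam19 fell by 1.93 on the log2 scale, from 11.5 to 17.1 CPM to 2.15 to 5.35 CPM. Adam19 therefore fell under CHIR, rose between d3 and d4 and was higher again with Gdf11.

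When the same limits and the same dropped symbols were applied to the Nr6a1-/- libraries, 75 genes met them and 40 of these were among the 66, which is 53.3% of the Nr6a1-/- list and 60.6% of the wildtype list. Of the 26 others among the 66, 10 failed the level of 10 CPM, 22 the 4-fold limit over d4 and 11 the 2-fold limit over an earlier stage, so that several failed more than 1. Lefty1, Smad7 and Tbx3 were on the Nr6a1-/- list alone, although their wildtype means were also higher at d4G. Wildtype d4 (replicates 1 and 3) and d4G means were 3.13 and 72.3 CPM for Lefty1 and 10.7 and 30.8 CPM for Smad7. Lefty1 thus met the limits on level and over d4 in wildtype, and missed the limit over an earlier stage. Tbx3, a T-box gene of the limb field, had d4 and d4G means of 10.2 and 155 CPM in Nr6a1-/- cells and of 30.7 (replicates 1 and 3) and 88.6 CPM in wildtype cells.

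Genes of the pathway were examined beside the 66. Of 24 Smad2/3 feedback and target genes 18 passed the filter. In Nr6a1-/- cells 15 of them were higher at d4G than at d4, against 8.45% of all genes tested, with a median log2 fold change of 2.37. DESeq2 called 13, without Bambi and Cdkn2b. Apart from Pmepa1 and Lefty2 the 15 included Smad7, Skil, Ski, Bambi, Lefty1, Nodal, Cdkn1a, Cdkn2b, Ctgf, Cyr61, Gsc and Mixl1. Smad7, the inhibitory Smad, had means of 2.14 CPM at d4 and 33.2 ± 4.95 CPM (SD, n = 3) at d4G, and Lefty1 of 4.08 and 274 ± 11.9 CPM. Tgif1, Eomes and Foxh1 were not called. Between d3 and d4, without Gdf11, 10 of the 18 were lower and 0 higher (median log2 fold change -1.16), where 12.3% of all genes tested were lower. Against d3, 11 were higher at d4G and 1 lower (median 1.55), where 18.8% of all genes tested were higher. Of 12 genes of the Gdf11 ligand, its receptors and Smads 9 passed the filter, 1 was higher (Gdf11, log2 fold change 0.79, SE 0.22) and 1 lower (Smad3, -0.81, SE 0.18). DESeq2 called Smad3 alone, with 0 higher, and at an unadjusted p below 0.05 it gave 1 higher. The receptor gene Acvr2b had means of 292 and 296 CPM, and Acvr1b and Tgfbr1 were likewise not called. These 2 lists overlap the 66 in Pmepa1, Lefty2 and Wfikkn1.

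Lists of cell types and states gave the following counts for d4G against d4 in Nr6a1-/- cells, where 8.45% of all genes tested were higher and 9.59% lower. Of 8 genes of lateral mesoderm and the hindlimb field tested, 6 were higher, Foxf1, Tbx3, Pitx1, Bmp4, Bmp7 and Msx2. At an unadjusted p below 0.05 edgeR and DESeq2 each gave 6 higher and 1 lower for this list. Osr1, another gene listed, had 0 counts in Nr6a1-/- d4G cells. Of 11 NMP markers 1 was higher (Fgf17) and 6 lower, among them Sox2 (-2.51) and Nkx1-2 (-2.45). Of 10 paraxial mesoderm markers tested 2 were higher (Pax3 and Pcdh8) and 6 lower, and of 8 neural markers 1 was lower (Hes5, -2.67). Of 11 epiblast and pluripotency markers and 6 endoderm markers, 0 were called in either direction by edgeR or by DESeq2, and at an unadjusted p below 0.05 edgeR gave 1 lower epiblast marker and 1 higher endoderm marker. Of 4 feeder fibroblast markers tested Col1a1 and Col1a2 were higher, while S100a4 had 0 counts at d4 and d4G. Dcn (log2 fold change 0.15) and Thy1 (-1.54, SE 0.59, edgeR FDR 0.0822) were not called. At an unadjusted p below 0.05 edgeR and DESeq2 each gave 2 higher and 1 lower for these markers. Of 5 stress and immediate early genes tested 2 were higher, Jun and Egr1. Runx1 was higher and Etv2 not called among the blood and endothelial markers, of which Kdr, Cdh5, Tal1, Gata1 and Tie1 were at or below 0.610 CPM and Pecam1 at 1.07 to 1.51 CPM on average in d4 and d4G cells of both genotypes.

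Of the 66 genes 65 are annotated as protein coding. The exception, Gm42939, lies inside an intron of Igsf3 on its strand, so its reads cannot be told from those of Igsf3 transcripts before splicing. In all, 32 of the genes overlap another annotated gene, for example Junb with Prdx2 and Mfap4 with Mapk7. Without a stated use of strand in the counting, reads in shared stretches cannot be assigned to 1 of the pair.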

How the data were processed

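Gene counts of 30 libraries were deposited by the authors as 1 table of raw counts per gene, from 3′ end reads of polyadenylated RNA. The submitters' processing notes name STAR, edgeR and mm10; strand use and the treatment of molecular identifiers are not given in the sources used here. Tables of the authors' own comparisons were not used. CPM was computed from the column totals. The 12149 genes that exceeded both 10 counts and 2 CPM in 2 or more libraries of 1 group were fitted in 1 model of 10 groups with TMM factors by edgeR 4.0.16 (R 4.3.3), with 2-sided quasi-likelihood tests and Benjamini-Hochberg adjustment over all genes tested. The step was tested on simulated data. DESeq2 1.42.0, other scalings, no filter, thinning, a replicate block and leaving out libraries were alternatives.

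The genes and lists were chosen with earlier results of these data known. Named genes were those with the 20 highest wildtype d4G means, the 10 largest wildtype ratios, the 10 largest and 10 smallest changes in Nr6a1-/- cells, those not called there, those nearest the 4-fold limit, the 5 highest and 5 lowest ratios between genotypes, and those in a gene list. Other members were named after their values were seen. Replicate numbers were not used to pair the libraries in the main fit. Results for some genes are not reported here.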

Additional observations from a re-analysis of the deposited data

How the results depend on the processing

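Of 2747 values under alternatives, 2641 kept their direction and their side of the threshold, or moved by less than the spread or 1.5 times. In Nr6a1-/- cells 55 to 57 of the genes were called higher at d4G than at d4 under every alternative run, with a median of 2.57 to 2.79, and 58 to 61 against d3. With only the libraries compared in the fit, the median moved to 2.63 against d3, to -0.26 between d3 and d4 and to 0.91 between d2 and d3, over the 60, 38 and 36 genes that then passed the filter. Without 1 library these medians ran from 2.42 to 2.55, from -0.22 to 0.055 and from 0.57 to 0.85, with the lowest without d4 replicate 2 and without d3 replicate 1. For 4 of the 9 genes not called at d4G against d4 the direction changed. Sox9 was at 0.02 on the log2 scale with library totals alone (0.024) and with thinned libraries (0.018), and without 1 library it ran from -0.22 to 0.067, Tgfb2 from -0.081 to 0.65, Barx1 from -0.69 to 1.44 and Wfikkn1 from -0.80 to 0.27. The number of genes meeting the rule was 36 at 6 times d4, 95 at 3 times d4, 57 on TMM-scaled CPM and 62 to 74 without 1 wildtype library.

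With the replicate block, 56 genes were called higher at d4G than at d4, since Gm42939 lost its call, and 2254 genes were called in all. Same-numbered libraries had correlations of -0.053 to 0.134. Between d3 and d4 they were 0.024 to 0.134, and differently numbered libraries had -0.099 to 0.019. Between d2 and d3 they were 0.040 to 0.099, against -0.076 to 0.037. A weak pairing is therefore possible there, and the main fit did not use it. With the block, 0 of the 66 genes lost a call between d3 and d4, and 1 (Cdh11) between d2 and d3. Depth limits the low genes: 3 counts in a library were up to 1.91 CPM, and several genes had 0 to 3 counts in Nr6a1-/- d4 libraries.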
